A study of Mus musculus with 8 samples.

Results

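Potassium channel genes and the sulfonylurea receptor genes were examined in mouse thoracic aortas with and without Tsc1 in smooth muscle. The set holds every gene of the expression table whose symbol starts with Kcn, with Abcc8 and Abcc9 added, which gave 99 of 23993 genes. The RNA came from 8 aortas, taken at 24 weeks of age from male mice of the C57BL/6 strain. All 8 animals carried Myh11-CreERT2, a Cre recombinase expressed from a smooth muscle myosin promoter and activated by tamoxifen, and the mT/mG fluorescent reporter, and all received tamoxifen at 1.5 weeks. The 4 controls had wild-type Tsc1 alleles (Tsc1+/+), and the 4 knockouts had floxed ones (Tsc1fl/fl) that Cre removes in Myh11-expressing cells. The cell type is labelled as smooth muscle, yet the frozen vessel was crushed whole and no sorting step is described, so endothelium, adventitia and any attached tissue contributed RNA. In such bulk samples, fewer cells of a type and less RNA per cell cannot be told apart. Replicates were taken as separate animals, which the labels do not state, and where that does not hold a p-value describes only how far samples scatter.

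Potassium channels set the resting membrane potential of arterial smooth muscle: when they open, potassium leaves the cell, the membrane hyperpolarizes, voltage-gated calcium channels close and the vessel relaxes. The pore is built from subunits of several families, which open with voltage (Kcna to Kcnd, Kcnh, Kcnq), with intracellular calcium or sodium (Kcnma1, Kcnn, Kcnt), with metabolic state (the ATP-sensitive, or KATP, channels of Kcnj8 or Kcnj11 with a sulfonylurea receptor) or stay open as leaks (the two-pore Kcnk family). Small accessory subunits (Kcnmb, Kcne, Kcnab, Kcnip) set how readily each pore opens and how much of it reaches the membrane.

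Expression is given in FPKM, fragments per kilobase relative to the depth of each library, a unit that allows levels of different genes to be set side by side. They are listed for replicates 1 to 4 of each group, and means carry ± SD with n = 4 per group. Differences are log2(FPKM + 1), knockout minus control, with their standard error (SE) and a Benjamini-Hochberg adjusted p from limma, fitted to the 12107 genes that averaged 1 FPKM or more, and a gene was called at an adjusted p under 0.05. The libraries had between 11867 and 12083 genes at 1 FPKM or more, and their relative depth ran from 0.758 in knockout 1 to 2.42 in control 3 with control 1 set to 1. Absolute depth is unknown. Tsc1 itself, measured over the whole gene and in all cells of the wall, ran from 4.03 to 6.32 FPKM in controls and from 2.99 to 3.71 in knockouts (adjusted p = 0.019 by limma). Summed markers of smooth muscle were 17200 to 17590 FPKM in controls and 11279 to 15078 in knockouts, with 4 of 6 lower and 0 higher. Nppa, the atrial natriuretic peptide, was 150 FPKM in knockout 1 and 187 in knockout 4 against 0.168 to 0.353 in the other 6 libraries. Summed atrial muscle markers were 412, 103, 69.5 and 406 FPKM in knockouts 1 to 4 against 48.9 to 61.0 in controls. In knockouts 2 and 3 Tnnt2 was 84.1 and 45.6 FPKM (controls 31.1 to 39.1) and Myl4 12.3 and 12.5 (controls 7.65 to 10.7). Nppa and Myl7 lay within their control ranges in those 2 libraries. Summed striated muscle markers were 270 FPKM in control 4, 14.7 to 20.2 in the other controls and 6.53 to 41.4 in knockouts. Replicates 1 and 3 separated from replicates 2 and 4 on the second principal component in both genotypes.

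Of the 99 genes, 24 averaged 1 FPKM or more and were tested, 6 were at 0 in every library and the others were low. Among the tested genes 10 were higher in the knockout (41.7%, against 17.1% of all genes tested), 3 were lower (12.5%, against 15.0%) and 11 were not called. Kcnt1 and Kcnj12 averaged under 1 FPKM in controls and entered the test only through their knockout values. Both are among the 10 higher and are included in the share of 41.7%. Genes that pass the filter this way are bound to lean higher, so these calls are no evidence for an excess. The median log2 difference of the tested members was 0.18, and that of all genes tested was 0.01. Without knockouts 1 and 4, the libraries with high Nppa, 6 of the 24 members were called higher and 2 lower, where 9.22% and 7.81% of all genes were called in that fit. Kcnt1 and Kcnj12 were among these 6. Summed over all 99 genes, accessory subunits, receptors and antisense transcripts included, expression was 442 to 503 FPKM in controls and 599 to 736 FPKM in knockouts. Abcc9 (means 66.7 in controls and 208 in knockouts) and Kcnk3 (5.13 and 68.3) made up most of that gap. Kcnmb1 went the other way (94.6 and 64.5), so the sum does not show a rise across the family. The 3 genes with the highest means in controls were Kcnmb1, Kcnab1 and Abcc9, and in knockouts they were Abcc9, Kcnk3 and Kcnmb1. Abcc9 stood clear of the next gene in every knockout library, while the ranges of Kcnk3, Kcnmb1, Kcnab1 and Kcnc4 in knockouts overlapped.

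**Figure D1:**
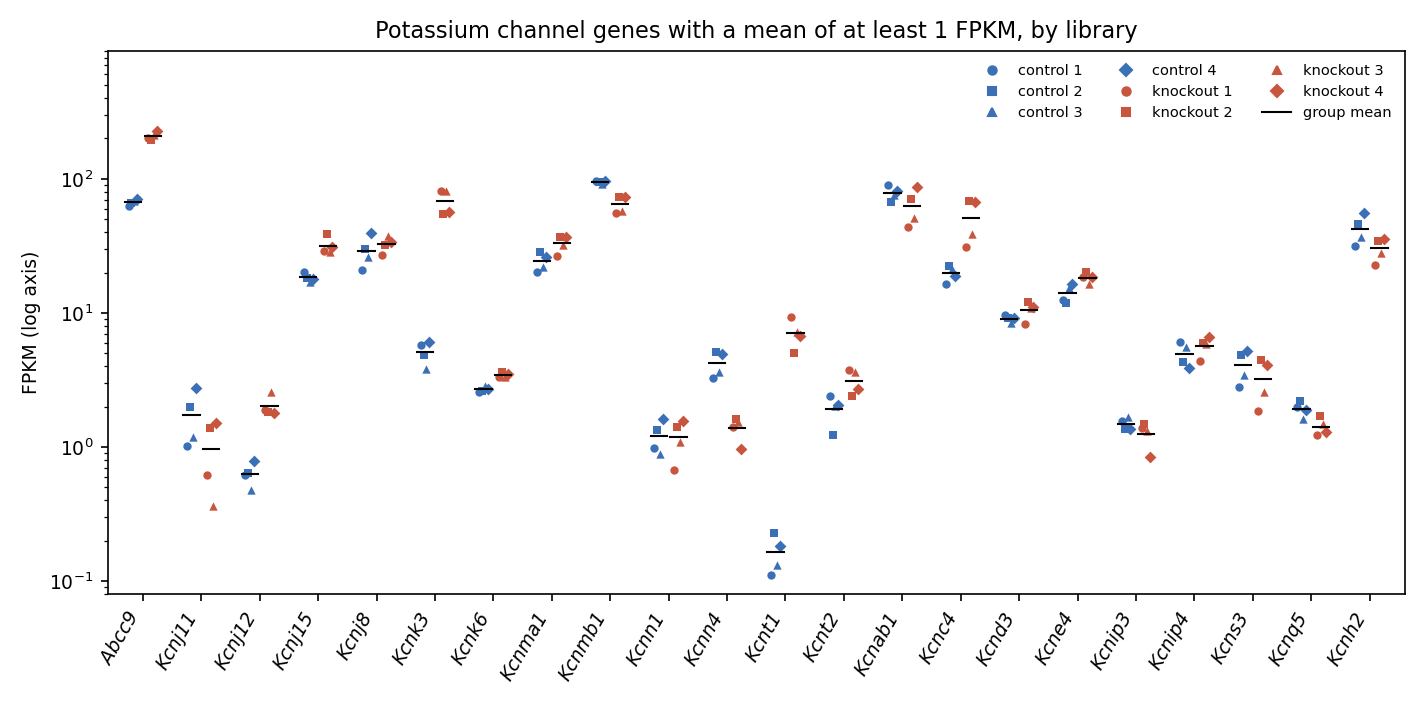
FPKM of 22 of the 24 tested potassium channel genes on a log axis, grouped by channel class, with 1 point per library (blue controls, red knockouts, marker shape for the replicate number) and a black bar at each group mean. Abcc9, Kcnk3, Kcnt1, Kcnc4, Kcnj15, Kcnj12 and Kcnk6 have every knockout above every control, and Kcnn4 and Kcnmb1 have every knockout below.

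**Figure D2:**
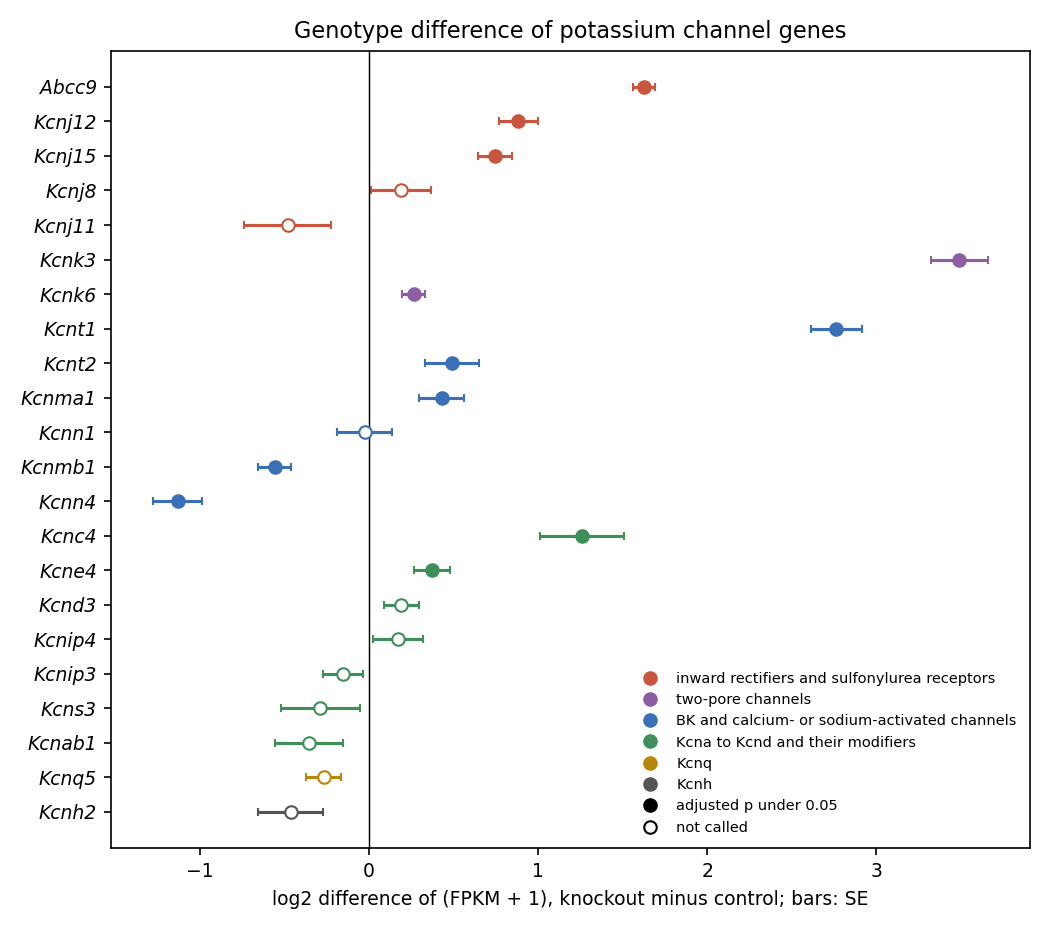
Log2 difference of (FPKM + 1), knockout minus control, for 22 of the 24 tested genes, with SE bars, colour for the channel class and filled points for an adjusted p under 0.05. Kcnk3 (3.49) and Kcnt1 (2.76) lie farthest to the right and Kcnn4 (-1.13) farthest to the left.

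Inward rectifiers and sulfonylurea receptors were the class with the highest summed expression in knockouts, 277 ± 15.3 FPKM against 117 ± 11 in controls, and most of that sum was Abcc9. Of 17 genes 5 were tested, and Abcc9, Kcnj15 and Kcnj12 were higher while Kcnj8 and Kcnj11 were not called. Abcc9 encodes the sulfonylurea receptor that surrounds the pore of vascular and cardiac KATP channels, binds ADP and is the target of KATP openers. Kcnj8 encodes the pore subunit that is its usual partner in vascular smooth muscle. Their genes are neighbours on the minus strand of chromosome 6, Kcnj8 at chr6:142564837-142571614 and Abcc9 at chr6:142587862-142702315 (GRCm38). The 250 bases before each start are shown because neighbouring genes for the subunits of 1 channel differed in their response. They come from RefSeq on GRCm38.p6, read on the minus strand from chr6:142702275-142702524 for Abcc9 and from chr6:142571615-142571864 for Kcnj8, with CpG dinucleotides in capitals.
Abcc9: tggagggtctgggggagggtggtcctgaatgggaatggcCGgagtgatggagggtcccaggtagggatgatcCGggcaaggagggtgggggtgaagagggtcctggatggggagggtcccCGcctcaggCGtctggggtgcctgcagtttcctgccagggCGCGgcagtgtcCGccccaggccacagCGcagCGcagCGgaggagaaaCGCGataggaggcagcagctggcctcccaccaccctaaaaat
Kcnj8: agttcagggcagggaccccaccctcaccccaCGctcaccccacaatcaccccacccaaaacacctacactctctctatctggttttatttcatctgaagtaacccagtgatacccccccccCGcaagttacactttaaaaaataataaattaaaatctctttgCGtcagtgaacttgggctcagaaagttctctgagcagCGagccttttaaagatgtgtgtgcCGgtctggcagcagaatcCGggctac
The Abcc9 stretch holds 12 CpG at 66.8% GC and the Kcnj8 stretch 6 CpG at 49.2% GC, where the medians of all 32851 promoters in the table are 6 CpG and 52.4% GC.

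Abcc9 measured 62.4, 66.0, 68.2 and 70.2 FPKM in controls 1 to 4 and 201, 195, 210 and 227 FPKM in knockouts 1 to 4. Every knockout lay far above every control, and the spread within each genotype was small. The ratio of the means was 3.12, with a log2 difference of 1.63 (SE 0.06, adjusted p = 6.17e-06, limma). An antisense transcript, 5330439B14Rik, overlaps 1.89% of its exon bases. Abcc8, the other sulfonylurea receptor, which is known from pancreatic beta cells and also from atrial muscle, did not reach 0.5 FPKM in any library.

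Kcnj8 measured 20.9, 30.0, 26.0 and 39.4 FPKM in controls and 27.2, 32.3, 37.5 and 33.9 in knockouts. All knockout values lay inside the control range, and the log2 difference was 0.19 (SE 0.18, adjusted p = 0.437, limma), ranging from -0.05 to 0.44 over the alternatives tried. Kcnj11, the pore subunit of KATP channels in heart muscle and beta cells, measured 1.02, 1.97, 1.19 and 2.76 FPKM in controls and 0.614, 1.38, 0.364 and 1.50 in knockouts. The groups overlapped, and in both genotypes replicates 2 and 4 were the higher ones. Its log2 difference was -0.48 (SE 0.26, adjusted p = 0.188, limma), and the adjusted p was 0.00912 with odd or even replicate number as a covariate. With striated muscle markers as a covariate the Kcnj11 difference was -0.28 (adjusted p = 0.437, limma). The part of striated muscle, whose summed markers were highest in control 4, was not tested.

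Receptor and pore transcripts therefore stood in a different proportion in the 2 genotypes. The ratio of Kcnj8 to Abcc9 FPKM was 0.334, 0.456, 0.382 and 0.561 in controls and 0.136, 0.166, 0.178 and 0.150 in knockouts, with no overlap. On the log2 scale the ratio was lower by 1.44 in knockouts, a difference of -1.44 (two-sided exact permutation p = 0.0286, the smallest that 4 against 4 allows, 0.04 after Benjamini-Hochberg adjustment over 7 ratios). The ratio of Kcnj11 to Abcc9 was 0.0258 ± 0.0109 in controls and 0.00463 ± 0.00265 in knockouts, also without overlap (exact permutation p = 0.0286, adjusted 0.04). Kcnj8 to Kcnj11, the ratio of the alternative pores, was 18 ± 3.76 in controls and 48.3 ± 37.9 in knockouts. Its knockout range was wide, from 22.6 to 103, and still lay above the control range of 14.3 to 21.8 (exact permutation p = 0.0286, adjusted 0.04). The log2 difference of this ratio was 1.16, and 0.69 without knockout 3. These 3 ratios are not separate results: the first 2 share Abcc9, and the third is the quotient of those 2. Neither Kcnj8 nor Kcnj11 was called by itself. The adjusted value of 0.04 also depends on several of the 7 ratios sharing the smallest possible p.

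**Figure D3:**
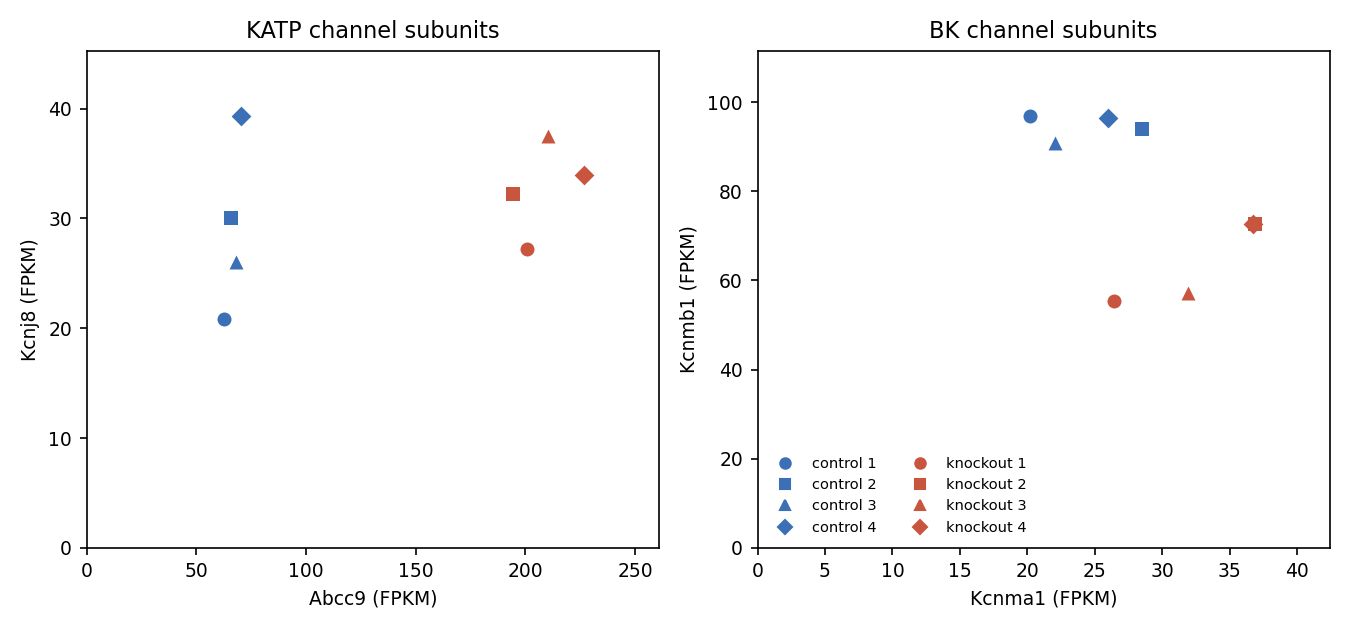
FPKM of subunits of the same channel plotted against each other, 1 point per library (blue controls, red knockouts, marker shape for the replicate number), with Kcnj8 against Abcc9 on the left and Kcnmb1 against Kcnma1 on the right. Knockouts lie within the control range of Kcnj8 but at 195 to 227 FPKM of Abcc9, and below every control for Kcnmb1 with overlapping Kcnma1 values.

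Kcnj15, an inward rectifier best known from kidney and stomach epithelia, measured 20.3, 18.3, 17.1 and 17.8 FPKM in controls and 28.8, 38.6, 28.6 and 30.8 in knockouts. All knockouts were above all controls, with knockout 2 the highest, and the log2 difference was 0.75 (SE 0.10, adjusted p = 0.000849, limma). Kcnj12, a strong inward rectifier of the kind that holds the resting potential in heart muscle, measured 0.621, 0.637, 0.482 and 0.786 FPKM in controls and 1.89, 1.82, 2.58 and 1.81 in knockouts. The groups did not overlap, although the levels were low, and the log2 difference was 0.88 (SE 0.11, adjusted p = 0.000666, limma). With a pseudocount of 0.1 in place of 1 it was 1.54. Kcnj2, the strong inward rectifier of small-artery smooth muscle, was below the test filter at 0.348, 0.288, 0.264 and 0.642 FPKM in controls and 0.284, 0.293, 0.295 and 0.224 in knockouts, and the groups overlapped.

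With a pseudocount of 1, Kcnk3 showed the highest log2 difference of all tested members, and with 0.1 Kcnt1 came first (4.75 against 3.71 for Kcnk3). It encodes an acid-sensitive two-pore leak channel that holds the resting potential in pulmonary artery smooth muscle and is also known from atrial muscle and brown fat. Kcnk3 (chr5:30588170-30625271, plus strand, GRCm38) measured 5.77, 4.87, 3.79 and 6.09 FPKM in controls and 81.0, 54.9, 80.4 and 56.8 in knockouts. All knockouts exceeded all controls by far, and knockouts 1 and 3 were above knockouts 2 and 4. The ratio of the means was 13.3 and the log2 difference 3.49 (SE 0.17, adjusted p = 1.25e-05, limma). Without the knockouts with high Nppa it was 3.48, and with fat markers as a covariate it was 3.54. Summed brown fat markers were 32.6 to 252 FPKM in controls and 29.4 to 164 in knockouts, with 0 of 5 tested called and none at 0 throughout. Neither fit isolates brown fat or atrial muscle, since the covariate pooled brown fat with other fat markers and no atrial covariate was fitted. The part of these tissues in the Kcnk3 difference was not tested. Kcnk3 shares 229 exon bases, 5.76% of its length, with Gm9899 on the other strand, which averaged 1.18 FPKM.

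Kcnk6, another two-pore channel gene, differed far less but evenly. It measured 2.58, 2.63, 2.85 and 2.72 FPKM in controls and 3.30, 3.62, 3.34 and 3.50 in knockouts. The groups did not overlap, and the log2 difference was 0.26 (SE 0.07, adjusted p = 0.0146, limma). The call was lost in the odd-numbered libraries alone (0.22, adjusted p = 0.137), in the even-numbered ones alone (0.31, adjusted p = 0.0607) and without knockouts 1 and 4 together (0.28, adjusted p = 0.0734). Kcnk2, a stretch-activated channel, measured 0.178, 0.0694, 0.0567 and 0.131 FPKM in controls and 0.178, 0.0133, 0.165 and 0.096 in knockouts, with overlap. Summed over its 14 genes, the two-pore class was 10.2 ± 0.990 FPKM in controls and 72.7 ± 14.3 in knockouts, nearly all of it Kcnk3.

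Channels opened by calcium or sodium moved in different directions. Of 12 genes 6 were tested, with Kcnma1, Kcnt1 and Kcnt2 higher, Kcnmb1 and Kcnn4 lower, and Kcnn1 not called. Kcnma1 encodes the pore of the large-conductance BK channel, which opens with calcium and depolarization and limits arterial constriction. Kcnmb1 encodes its smooth muscle accessory subunit, which raises the calcium sensitivity of the pore. The 250 bases before the RefSeq start of each gene are shown because these partner subunits were called in opposite directions. The Kcnma1 call was not stable. They are GRCm38.p6 chr14:24004206-24004455 on the minus strand for Kcnma1, a start that lies inside the longer gene of GENCODE (chr14:23289431-24014491), and chr11:33962763-33963012 on the plus strand for Kcnmb1. CpG dinucleotides are in capitals.
Kcnma1: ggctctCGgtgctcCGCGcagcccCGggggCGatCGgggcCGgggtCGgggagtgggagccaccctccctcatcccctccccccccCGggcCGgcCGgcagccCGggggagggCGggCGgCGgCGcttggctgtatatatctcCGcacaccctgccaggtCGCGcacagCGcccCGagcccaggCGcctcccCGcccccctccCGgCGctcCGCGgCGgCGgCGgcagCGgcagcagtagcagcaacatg
Kcnmb1: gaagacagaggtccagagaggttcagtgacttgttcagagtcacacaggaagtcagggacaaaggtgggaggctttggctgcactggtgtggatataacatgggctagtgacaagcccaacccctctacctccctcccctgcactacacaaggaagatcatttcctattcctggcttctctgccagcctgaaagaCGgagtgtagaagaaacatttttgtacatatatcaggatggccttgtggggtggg
Kcnma1 has 31 CpG in this window, more than 94.8% of all promoters in the table had, and Kcnmb1 has 1, where 7.87% of all promoters had fewer.

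Kcnmb1 had the highest level of any member in controls. It measured 97.0, 94.0, 90.9 and 96.4 FPKM in controls and 55.5, 72.6, 57.2 and 72.7 in knockouts. Every knockout was below every control, and knockouts 1 and 3 were the lowest. The log2 difference was -0.56 (SE 0.10, adjusted p = 0.00304, limma). Summed smooth muscle markers were 17200 to 17590 FPKM in controls and 11279, 15078, 12026 and 13932 in knockouts 1 to 4, with 4 of 6 lower. Their part in the Kcnmb1 difference was not tested. The gene lies within Kcnip1 on the opposite strand, without shared exon bases.

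Kcnma1 measured 20.2, 28.5, 22.1 and 26.0 FPKM in controls and 26.4, 36.9, 31.9 and 36.7 in knockouts. The groups overlapped, since knockout 1 was below control 2. Its log2 difference was 0.43 (SE 0.13, adjusted p = 0.0374, limma). The call was lost when control 1, 3 or 4 or knockout 2, 3 or 4 was left out, with adjusted p from 0.016 to 0.0947 and a difference from 0.35 to 0.53 over all 8 omissions. It was also lost without a filter on low genes (adjusted p = 0.0582). In all, 12 of 22 alternatives lost the call. These included library weights, the odd-numbered libraries alone, fat or striated muscle markers as a covariate, and the fit without knockouts 1 and 4. The ratio of Kcnmb1 to Kcnma1 was 4.8, 3.29, 4.12 and 3.71 in controls and 2.10, 1.97, 1.79 and 1.98 in knockouts, without overlap. The means were 3.98 ± 0.641 and 1.96 ± 0.127, a log2 difference of -1.01 (two-sided exact permutation p = 0.0286, adjusted 0.04).

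Kcnt1, a sodium-activated channel best known from neurons, was very low in controls at 0.112, 0.228, 0.132 and 0.183 FPKM. In knockouts it measured 9.27, 5.03, 7.19 and 6.67 FPKM, a clear separation. The ratio of the means was 43.0, and the log2 difference was 2.76 (SE 0.15, adjusted p = 1.68e-05, limma) with a pseudocount of 1 and 4.75 with a pseudocount of 0.1. Kcnt2, its close relative, measured 2.40, 1.23, 2.03 and 2.07 FPKM in controls and 3.77, 2.40, 3.63 and 2.70 in knockouts, and knockout 2 lay at the level of control 1. The log2 difference was 0.49 (SE 0.16, adjusted p = 0.0427, limma). That call was lost without control 2, 3 or 4 or knockout 1, 3 or 4, with a difference from 0.37 to 0.58 over all 8 omissions. It was also lost without a filter on low genes (adjusted p = 0.0688, limma). In all, 10 of 22 alternatives lost it, among them the even-numbered libraries alone and the fit without knockouts 1 and 4.

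Kcnn4 encodes the intermediate-conductance calcium-activated channel, which in arteries is best known from endothelium and from proliferating smooth muscle. It measured 3.27, 5.13, 3.64 and 4.95 FPKM in controls and 1.41, 1.62, 1.53 and 0.975 in knockouts, and no knockout reached the lowest control. The log2 difference was -1.13 (SE 0.14, adjusted p = 0.000659, limma), and the control mean was 3.07 times the knockout mean. Summed endothelial markers were 243 to 334 FPKM in controls and 135 to 193 in knockouts, with 8 of 10 lower and none at 0 throughout, and their part in the Kcnn4 difference was not tested. Kcnn3, the small-conductance channel of endothelium, measured 0.370, 0.574, 0.548 and 0.707 FPKM in controls and 0.292, 0.495, 0.197 and 0.362 in knockouts, with overlap. Kcnn1, of the same small-conductance group, had a mean of 1.21 ± 0.338 FPKM in controls and 1.18 ± 0.387 in knockouts (log2 difference -0.03, SE 0.16, adjusted p = 0.922, limma).

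The Kcnn4 promoter is shown because it was 1 of 3 among tested members with an E-box, the letters CACGTG. The 250 bases before its start are GRCm38.p6 chr7:24370013-24370262 on the plus strand, with CpG in capitals, and the E-box starts at position -133 relative to the gene start.
Kcnn4: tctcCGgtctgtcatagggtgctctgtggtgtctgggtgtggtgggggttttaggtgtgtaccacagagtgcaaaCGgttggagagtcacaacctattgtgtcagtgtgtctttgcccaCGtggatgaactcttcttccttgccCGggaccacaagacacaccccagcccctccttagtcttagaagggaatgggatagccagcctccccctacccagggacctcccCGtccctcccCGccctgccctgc
RefSeq promoter windows of 300 bases, 250 before and 50 after the start, were found for 72 of the 99 members and for 18 of the 24 tested, among them 26 windows. Both strands were searched. The E-box was in 4 of those windows, belonging to Kcnab1, Kcne4 and Kcnn4, and in 7.15% of all promoters of that length. The CArG box, the site of serum response factor, was in none of the 26 and in 1.63% of all promoters. The cAMP response element, TGACGTCA, was in none of the 26 and in 1.79% of all. With shares this low, none in 26 windows is a common outcome, so no lack of either site can be read from it. Neither of the motifs spelled out contains the other.

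Among the voltage-gated Kcna to Kcnd families and their modifiers, 39 genes in all, 8 were tested and Kcnc4 and Kcne4 were higher. Kcnc4 encodes a high-threshold, fast-opening channel. It measured 16.5, 22.5, 21.2 and 18.9 FPKM in controls and 31.0, 67.9, 38.6 and 67.6 in knockouts. The groups did not overlap, and knockouts 2 and 4 were well above knockouts 1 and 3. The log2 difference was 1.26 (SE 0.25, adjusted p = 0.0053, limma), with 0.85 among odd-numbered and 1.67 among even-numbered libraries, a gap that was not tested. Kcne4 encodes a single-span accessory subunit of voltage-gated channels. It measured 12.4, 11.9, 15.2 and 16.4 FPKM in controls and 18.7, 20.0, 16.3 and 18.4 in knockouts, and knockout 3 lay just below control 4. The log2 difference was 0.38 (SE 0.11, adjusted p = 0.0274, limma). The call was lost without control 1 or 2 or knockout 1, 2 or 4, with a difference from 0.31 to 0.45 over all 8 omissions. In all, 8 of 22 alternatives lost it, among them the odd-numbered and the even-numbered libraries alone.

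Kcnab1, a cytoplasmic beta subunit of Kcna channels, had the next highest level to Kcnmb1 in controls but was not called. It measured 89.2, 67.6, 75.2 and 80.3 FPKM in controls and 43.5, 70.6, 50.7 and 86.4 in knockouts. Knockouts 1 and 3 lay below every control, and knockouts 2 and 4 lay within the control range. The log2 difference was -0.35 (SE 0.20, adjusted p = 0.207, limma), and it was -0.79 (adjusted p = 0.0143) among odd-numbered libraries and 0.08 (adjusted p = 0.676) among even-numbered ones. Whether these differ was not tested. Kcna5, the pore of the main delayed rectifier of many arteries, stayed below the filter at 1.50, 0.536, 0.358 and 0.467 FPKM in controls and 0.478, 0.320, 0.504 and 0.436 in knockouts. The ratio of Kcnab1 to Kcna5 overlapped between groups (exact permutation p = 0.857).

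Kcns3, a silent subunit that modifies other voltage-gated pores, had means of 4.09 ± 1.14 FPKM in controls and 3.23 ± 1.22 in knockouts and was not called (adjusted p = 0.379, limma, and 0.043 with odd or even replicate number as a covariate). Kcnd3, the pore of a fast inactivating current, measured 9.64, 9.15, 8.38 and 9.11 FPKM in controls and 8.33, 12.1, 10.8 and 11.1 in knockouts. Knockouts 2 to 4 lay above every control and knockout 1 below them. Its log2 difference was 0.19 (SE 0.10, adjusted p = 0.183, limma), which became 0.29 (adjusted p = 0.0178) without knockout 1. Of the calcium-binding Kcnip proteins that join Kcnd channels, Kcnip4 averaged 4.95 ± 1.03 FPKM in controls and 5.68 ± 0.946 in knockouts, and Kcnip3 averaged 1.50 ± 0.153 and 1.26 ± 0.289. Neither was called (adjusted p = 0.397 and 0.352, limma).

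Kcnq channels open near the resting potential and hold arteries partly relaxed. Kcnq5 measured 1.97, 2.20, 1.61 and 1.87 FPKM in controls and 1.22, 1.69, 1.49 and 1.29 in knockouts. Knockout 2 lay above control 3, and the log2 difference was -0.27 (SE 0.10, adjusted p = 0.0741, limma). Kcnq1 was below the filter at 0.604, 0.874, 0.520 and 0.893 FPKM in controls and 0.474, 0.377, 0.422 and 0.515 in knockouts, and every knockout was just below every control. It was not called in the limma fit without a filter (adjusted p = 0.0624). Kcnh2, the hERG channel that repolarizes heart muscle, was the pore with the highest mean in controls. It measured 31.4, 45.9, 36.6 and 55.5 FPKM in controls and 22.9, 34.6, 27.9 and 35.7 in knockouts. Knockouts 2 and 4 lay above control 1. Its log2 difference was -0.46 (SE 0.19, adjusted p = 0.1, limma). It passed in 4 of 22 alternatives, such as without control 1 (-0.59, adjusted p = 0.0482) or with odd or even replicate number as a covariate (adjusted p = 0.00448). It was -0.32 without control 4 (adjusted p = 0.217) and -0.32 with striated muscle markers as a covariate (adjusted p = 0.254).

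The make-up of the pore-forming transcripts was set out as the share of each in the summed FPKM of the 77 pore-forming genes, 197 ± 26.8 FPKM in controls and 303 ± 24.5 in knockouts. Kcnk3 held 2.63% ± 0.574 of that sum in controls and 22.9% ± 6.54 in knockouts. Kcnh2 held 21.3% ± 2.47 and 9.93% ± 1.22. Kcnc4 held 10.1% ± 1.47 in controls and 16.7% ± 5.16 in knockouts. Kcnma1 held 12.3% ± 0.946 and 10.9% ± 0.792. A share also falls when another gene rises, and these values describe messenger RNA, not channels in the membrane. In knockouts 1 and 3 Kcnk3 held the highest share, and in knockouts 2 and 4 Kcnc4 did.

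**Figure D4:**
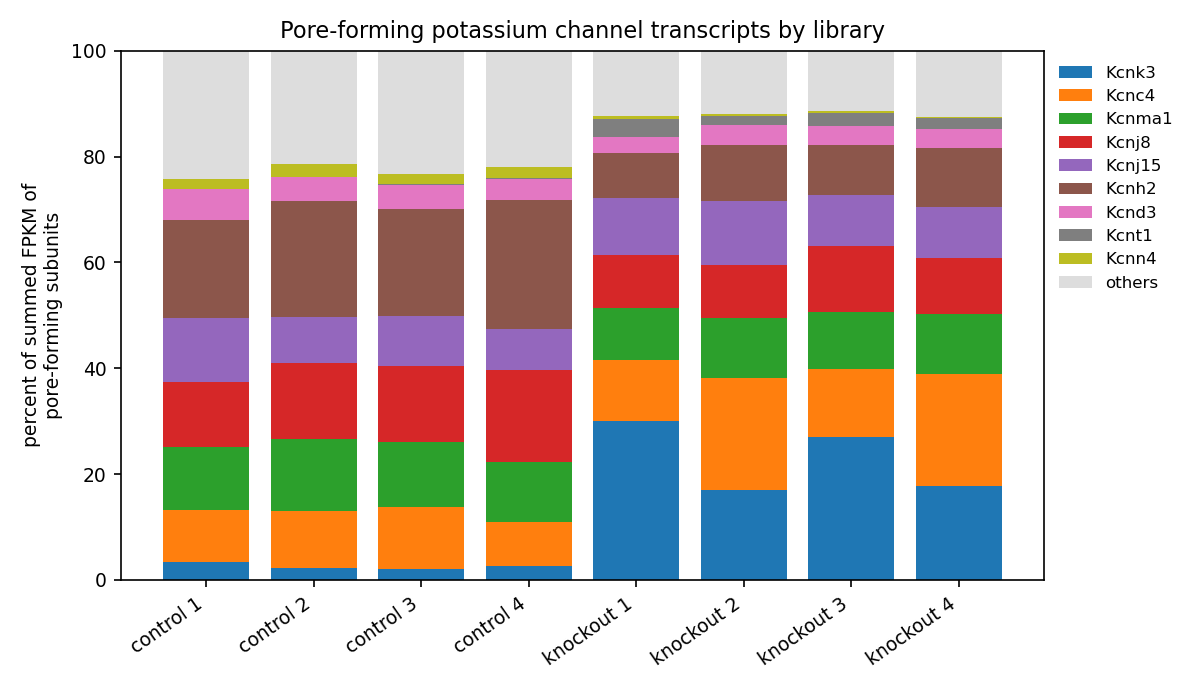
Percent of the summed FPKM of pore-forming potassium channel genes, 1 stacked bar per library, with 9 genes coloured and the others in light grey. Kcnk3 covers 2.10% to 3.41% of the bar in controls and 17.0% to 30.0% in knockouts, while Kcnh2 covers 18.6% to 24.4% and 8.48% to 11.1%.

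Below the filter, 22 genes reached 0.5 FPKM in at least 1 library and 53 did not. In a fit of all 18601 genes not at 0 throughout, 93 members were included, of which 9 were called higher (9.68%, against 11.3% of all genes in that fit) and 10 lower (10.8%, against 10%, 1860 of 18601 genes). Among the 69 of them under the filter 7 were lower and 1 higher, where 4.40% and 3.77% of the 6494 genes under the filter were called, and every adjusted p of a gene under the filter comes from that limma fit. Kcnk1, a weakly conducting two-pore channel, measured 1.27, 1.55, 1.14 and 1.60 FPKM in controls and 0.212, 0.365, 0.272 and 0.446 in knockouts (log2 difference -0.85, adjusted p = 0.000512). Kcnf1, a silent voltage-gated subunit, measured 1.09, 0.810, 1.01 and 0.683 FPKM in controls and 0.0163, 0.13, 0 and 0.0410 in knockouts (log2 difference -0.86, adjusted p = 0.000316). Kcne3, a single-span accessory subunit, measured 0.991, 1.04, 0.661 and 1.06 FPKM in controls and 0.236, 0.276, 0.0977 and 0.375 in knockouts (log2 difference -0.64, adjusted p = 0.00236). For these 3 genes each knockout lay far below each control.

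The channels of nerve fibres Kcna1, Kcna2 and Kcna6 were also lower without overlap. Kcna6 measured 0.841, 0.985, 0.849 and 0.780 FPKM in controls and 0.318, 0.235, 0.306 and 0.292 in knockouts (log2 difference -0.53, adjusted p = 0.000269). Kcna1 ran from 0.597 to 1.10 FPKM in controls and from 0.274 to 0.511 in knockouts (adjusted p = 0.0317), and Kcna2 ran from 0.845 to 1.22 and from 0.584 to 0.774 (adjusted p = 0.028). Summed markers of Schwann cells and neurons were 10.6 to 15.9 FPKM in controls and 6.33 to 11.4 in knockouts, with 3 of 4 tested lower and none at 0 throughout, and their part in these differences was not tested. An antisense gene, Gm26673, overlaps 39.6% of the Kcna6 exon bases, and no source gives the strand setting. The remaining calls were Kcnh3, at most 0.286 FPKM, lower (adjusted p = 0.0406), and Kcnip2, at most 0.493 FPKM, higher (adjusted p = 0.0362). These 2 were named after their values were seen.

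**Figure D5:**
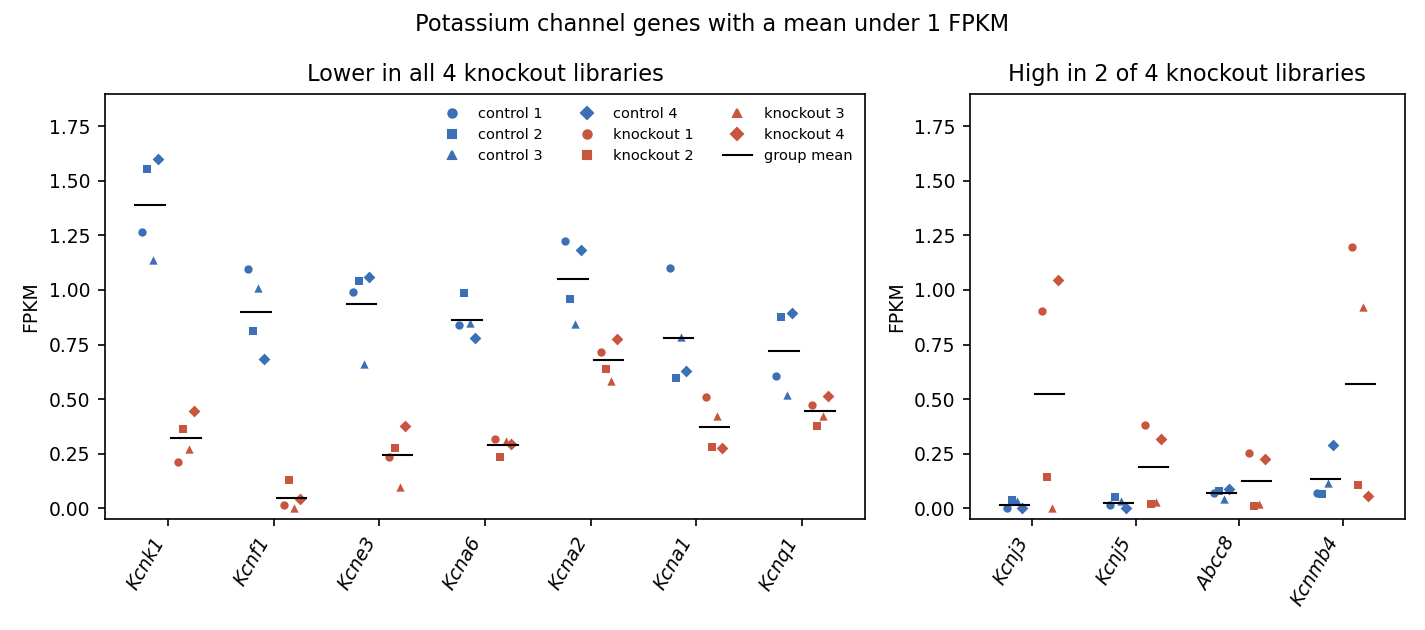
FPKM of potassium channel genes with a mean under 1 FPKM, 1 point per library (blue controls, red knockouts, marker shape for the replicate number) and a black bar at each group mean. On the left are 7 genes picked because every knockout lay below every control. Kcnq1 among them was not called, and Kcnh3, which separated likewise, is not drawn. How many of all low genes separate in this way was not counted. On the right are 4 genes that are high in 2 of 4 knockouts only, Kcnj3, Kcnj5 and Abcc8 in knockouts 1 and 4 and Kcnmb4 in knockouts 1 and 3.

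Some low genes were high in only some knockouts. Kcnj3, an atrial subunit of the channel opened by acetylcholine, measured 0, 0.0362, 0.0313 and 0 FPKM in controls and 0.905, 0.144, 0 and 1.05 in knockouts. Its partner Kcnj5 measured at most 0.0501 FPKM in controls and 0.382, 0.0199, 0.0309 and 0.318 in knockouts. Abcc8 followed the same order, at 0.0721, 0.0794, 0.0444 and 0.0886 FPKM in controls and 0.251, 0.00899, 0.0186 and 0.228 in knockouts. Knockouts 1 and 4, where these 3 genes were high, are the libraries with high Nppa, and the part of atrial tissue was not tested. A noncoding gene on the other strand, Gm26794, overlaps 31.1% of the Kcnj3 exon bases. None of the 3 was called (adjusted p = 0.149, 0.212 and 0.592). Of the other low genes, Kcnab2 ran from 0.492 to 0.912 FPKM over the 8 libraries, Kcnd1 from 0.613 to 0.932, Kcnq3 from 0.334 to 0.772 and Kcnip1 from 0.146 to 1.33. Kcnk5 ran from 0.168 to 0.547 FPKM, Kcnab3 from 0.073 to 0.660 and Kcnrg from 0.248 to 0.573. Of the antisense transcripts, Kcnq1ot1 ran from 0.523 to 1.24 FPKM and Kcnmb4os1 from 0 to 0.629.

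Genes that work with potassium channels were counted from lists of related genes. Over all genes tested, 17.1% were higher and 15.0% lower, the shares beside which the count of each list stands. Of 17 tested partners and anchors 5 were lower and 0 higher. Cav1, the caveolar protein near which BK and KATP channels sit, measured 391, 367, 408 and 378 FPKM in controls and 146, 266, 172 and 270 in knockouts, without overlap (log2 difference -0.90, SE 0.19, adjusted p = 0.00743, limma). S100a10, a small adaptor protein that binds the Kcnk3 channel, fell from 186 ± 14.2 to 116 ± 12.1 FPKM (adjusted p = 0.000693, limma), while Kcnk3 rose. Calm3, Vapa and Stx1a were the other lower ones.

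Of 14 tested genes for potassium pumps and cotransporters 3 were higher and 4 lower, beside 17.1% and 15.0% of all genes. Atp1b1, a beta subunit of the sodium pump that brings potassium into the cell, measured 9.13, 14.4, 10.6 and 13.8 FPKM in controls and 138, 69.1, 121 and 63.5 in knockouts. As for Kcnk3, all knockouts were far above all controls and knockouts 1 and 3 were the highest (log2 difference 2.87, SE 0.26, adjusted p = 0.000141, limma). Atp1b3 rose from 142 ± 14.8 to 263 ± 7.83 FPKM (adjusted p = 9.79e-05), and Atp1b2 fell from 64.5 ± 8.02 to 31.5 ± 6.03 FPKM (adjusted p = 0.000889). Among the pump regulators Fxyd1, Fxyd5 and Fxyd7 were lower.

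Of 8 tested calcium sources that activate or oppose these channels 4 were lower and 0 higher, beside 15.0% and 17.1% of all genes. Cacna1c, the pore of the L-type calcium channel that potassium channels hold in check, fell from 10.9 ± 0.422 to 9.01 ± 0.83 FPKM (log2 difference -0.25, adjusted p = 0.0276, limma). Cacna2d1, its accessory subunit, fell from 28.6 ± 2.67 to 18.6 ± 4 FPKM (adjusted p = 0.0109, limma). Trpv4, a calcium-permeable channel coupled to BK and endothelial calcium-activated channels, fell from 4.96 ± 0.553 to 2.45 ± 0.324 FPKM (adjusted p = 0.000514, limma), and Cacna1h was the fourth. Of 11 tested kinases, phosphatases and transcription factors that act on channels 1 was higher (Nfatc3) and 2 were lower (Prkacb and Ppp3ca), beside the same shares.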

How the data were processed

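The deposited values are FPKM made by the authors, 1 column per library. Per the submitters' processing notes, TopHat2, Cufflinks, Cuffdiff and build mm10 were used, without versions or roles. Annotation, strandedness and library scaling were not given in the sources used here. Per the labels' protocols, libraries were made from polyA-selected RNA, 500 ng with a RIN above 7. All 8 columns were used as deposited.

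FPKM were transformed as log2(FPKM + 1), which understates the change of low genes, and the 12107 genes averaging 1 FPKM or more were fitted with limma 3.58.1 in R 4.3.3 (mean-variance trend, genotype as the only term, two-sided, Benjamini-Hochberg adjustment). The script was tested on simulated data. Ratios of subunits were compared by two-sided exact permutation tests. Tested members are reported, with members called and the main smooth muscle channels named, and low members from 0.5 FPKM given by range. Some genes enter the counts but are not reported here. The members and gene lists were chosen with earlier results of these data known. Coordinates are from GENCODE M21, in which all 99 symbols matched 1 gene, and promoters from RefSeq. Relative depth was read from genes under 0.3 FPKM and is rough. Alternatives were another pseudocount, filter, scaling, weighting or variance model, covariates, subsets of libraries and a replicate block.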

Additional observations from a re-analysis of the deposited data

Results flagged for a closer look

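In 4 of the 92 groups of 4 libraries examined, the highest or lowest value stood apart from the other 3 by more than a test for single outlying values (Dixon's) allows, where chance alone gives about 1 in 20. Kcnj12 was 2.58 FPKM in knockout 3, above the other knockouts. Kcna5 was 1.50 FPKM in control 1, above the other controls. Kcne3 was 0.661 FPKM in control 3, below the other controls. Kcnj2 was 0.224 FPKM in knockout 4, below the other knockouts.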

How the results depend on the processing

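Across 22 alternatives, 8 of the 13 calls kept their direction and their side of the threshold in all: Abcc9, Kcnc4, Kcnj12, Kcnj15, Kcnk3, Kcnmb1, Kcnn4 and Kcnt1. Of these, Kcnj12 and Kcnt1 entered the test only through their knockout values. Kcne4, Kcnma1, Kcnt2 and Kcnk6 were among the 5 that lost their call in some, and no called gene changed direction. The number of members called higher was 6 to 10, with 7 to 9 when 1 library was left out, and its lowest value, 6, came without both knockout libraries with high Nppa, an alternative added after seeing the data. The number called lower was 3 or 4 when 1 library was left out. It was 10 without a filter and 8 with a mean of at least 0.5 FPKM, since more genes were tested. With odd or even replicate number as a covariate it was 6, and in the odd-numbered libraries alone it was 5. With a replicate block 10 members were higher and 6 lower, with Kcnh2, Kcnj11 and Kcns3 gained. The numbers are not shown to pair the libraries: same-numbered libraries correlated in their deviations from the group means at 0.0656, 0.138, 0.135 and 0.173, and not every library correlated best with its own number. Depth is known only in relative terms, so no counting error can be given for the low genes, and 53 members below 0.5 FPKM in every library are described by their number only. Subunit ratios with 1 library left out were computed as values without a test.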

Other observations

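Kcnmb4, a BK accessory subunit best known from neurons, ran from 0.0658 to 0.290 FPKM over the controls and had 1.19, 0.106, 0.924 and 0.0580 FPKM in knockout replicates 1 to 4. It was high in knockouts 1 and 3 and within the control range or just below it in knockouts 2 and 4, and was not called. Spp1, which encodes osteopontin, had 61.3, 18.4, 63.6 and 15.5 FPKM in knockouts 1 to 4, and 0.492 to 2.56 in controls. Fetub, a secreted fetuin, had 59.9, 13.6, 77.3 and 14.6 FPKM in knockouts, and 1.24 to 1.58 in controls. Unlike Kcnmb4, both were far above their controls in knockouts 2 and 4 as well. An antisense transcript, Kcnmb4os1, covers 10.7% of the Kcnmb4 exon bases and was 0.266, 0, 0.629 and 0 FPKM in the knockouts.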
